A study of Homo sapiens with 8 samples.

Results

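Peroxiredoxins, superoxide dismutases, thioredoxin and catalase were examined as a group of 10 genes, PRDX1 to PRDX6, TXN, SOD1, SOD2 and CAT. They were taken by name from the 11244 genes of the deposited table of translation efficiency (TE), all 10 were found there, and all 10 passed the filters on low values in the tests of RNA, of ribosome footprints and of TE. Superoxide dismutases turn superoxide into hydrogen peroxide, and peroxiredoxins and catalase then remove that peroxide. Most peroxiredoxins do so with a reactive cysteine that thioredoxin returns to its reduced form, and thioredoxin is in turn reduced by thioredoxin reductase with NADPH. The same chemistry runs in several compartments, so the genes were grouped by where their proteins mainly act. PRDX1, PRDX2, PRDX6, TXN and SOD1 make up the 5 cytosolic genes. PRDX3, PRDX5 and SOD2 are mitochondrial, PRDX4 acts in the endoplasmic reticulum (ER), and CAT is the peroxisomal enzyme. PRDX5 is also found in the cytosol and in peroxisomes, and SOD1 also in the space between the mitochondrial membranes.

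The data came from ribosome profiling of cells labelled HepG2, a liver cancer line, with METTL5 intact (METTL5-WT) or disrupted with CRISPR-Cas9 and paired guide RNAs (METTL5-KO). METTL5 is the methyltransferase that places N6-methyladenosine on 18S ribosomal RNA. All cells received cycloheximide at 100 µg/ml for 7 min, part of each of 4 lysates was kept as input RNA, and ribosome-protected fragments (RPF) were recovered from the rest after micrococcal nuclease digestion, which gave 8 libraries in 4 groups of 2. Per the study's methods each cell line was grown from an isolated single cell, so clone and genotype cannot be told apart, and nothing says that the 2 lysates of a genotype were separate clones, so p-values measure the spread between these lysates, which may be technical. Input libraries held 10710226 to 15307257 counts. RPF libraries held 3970779 and 4592443 reads in METTL5-WT against 8626705 and 9255921 in METTL5-KO. Input counts of METTL5 itself were 490 and 542 against 208 and 151, lower in METTL5-KO as labelled. The labelled tissue was not borne out. The 8 hepatocyte genes checked (ALB, AFP, APOA1, APOB, TTR, SERPINA1, TF and FGB), which HepG2 cells are known to express, summed to 3 to 12 counts in each input library, 3 of them were at 0 in all 4 libraries, and 0 of the 8 were in the TE table. Of 8 markers of other liver cells, KRT7, a keratin of simple and ductal epithelia, had 8808 to 12259 counts, COL1A1 had 429 to 937, ACTA2 had 54 to 70, and PTPRC, CD68, LYZ, PECAM1 and VWF had 0 to 6. The libraries are therefore called by their genotype labels and not by a cell type.

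Reactive cysteines define how the peroxiredoxins and thioredoxin work. The coding sequence around them shows how close the genes printed here are at the level that a footprint reads. PRDX1 and PRDX6 were not searched, for lack of an entry in the promoter set used below, and PRDX5 held no match to the residues searched. Each stretch is given 5′ to 3′ on the coding strand from the canonical GENCODE transcript, with the codons of the active-site cysteines in capitals. In the peroxiredoxins this cysteine is the one that attacks the peroxide, and in thioredoxin both cysteines of the active site are marked.
PRDX2: gacttcacttttgtgTGCcccaccgagatc
PRDX3: gatttcacctttgtgTGTcctacagaaatt
PRDX4: gatttcacatttgtgTGTccaactgaaatt
TXN: tcagccacgtggTGTgggcctTGCaaaatg

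The PRDX2 stretch holds codon 51 and lies in exon 3 (hg38, chromosome 19, 12801008 to 12801037, minus strand). The PRDX3 stretch holds codon 108 and crosses from exon 3 into exon 4 (chromosome 10, between 119173848 and 119174455, minus strand). That of PRDX4 holds codon 124 and crosses from exon 2 into exon 3 (chromosome X, between 23671642 and 23675014, plus strand). The TXN stretch holds codons 32 and 35 in exon 2 (chromosome 9, 110251376 to 110251405, minus strand). Over their whole coding sequences the longest run of identical bases between any pair of the 10 genes was 17 bases, between PRDX1 and PRDX4, which is shorter than a footprint. Copies elsewhere in the genome were a larger matter. Of all windows of 28 coding bases, a typical footprint length, the share that also occurred outside the gene was 42.7% for TXN, 26.2% for PRDX3, 24.3% for PRDX2, 18.2% for PRDX1, 17.4% for PRDX6, 4.23% for PRDX5 and 2.99% for SOD1. It was 0 of 786 windows for PRDX4, 0 of 639 for SOD2 and 0 of 1554 for CAT. Reads that lie wholly in a repeated window are lost where only unique alignments are kept, so levels of TXN and of the PRDX genes with such copies are uncertain. The annotated pseudogenes of TXN, of which 7 were in the count table, held 30 to 109 input counts in a library, against 4766 to 13660 for TXN.

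Levels were compared between genes as counts per kilobase of exon scaled to the total of the library (cpm per kilobase) for input, and likewise over the coding sequence for RPF. In METTL5-WT input, PRDX1, a cytosolic peroxiredoxin, was the highest of the 10 at 661 ± 37.6 (SD, n = 2), followed by TXN at 444 ± 4.80 and SOD1 at 246 ± 12.9. PRDX5 (224 ± 12.3), PRDX4 (197 ± 7.79), PRDX6 (160 ± 3.51), PRDX2 (129 ± 0.315) and PRDX3 (123 ± 4.35) came next. CAT and SOD2 were far below, at 8.54 ± 1.43 and 6.38 ± 0.157 cpm per kilobase. No neighbours in this order overlapped in METTL5-WT, although the lengths matter, since per kilobase of the canonical transcript PRDX5 moved to the seventh place and overlapped PRDX6. In METTL5-KO input TXN passed PRDX1, at 894 ± 15.4 against 825 ± 19.3, but with the canonical transcript length PRDX1 stayed above TXN (1468 ± 34.4 against 1226 ± 21.1). In METTL5-WT RPF, TXN was the highest, at 2761 ± 216 cpm per kilobase, above PRDX6 at 1504 ± 82.0 and PRDX1 at 1416 ± 36.1, the latter of which overlapped SOD1 at 1310 ± 120. In METTL5-KO RPF, TXN was again highest at 5235 ± 286, while PRDX6 (2597 ± 82.1) and SOD1 (2441 ± 257) overlapped each other and both lay above PRDX1 (1777 ± 121).

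**Figure D1:**
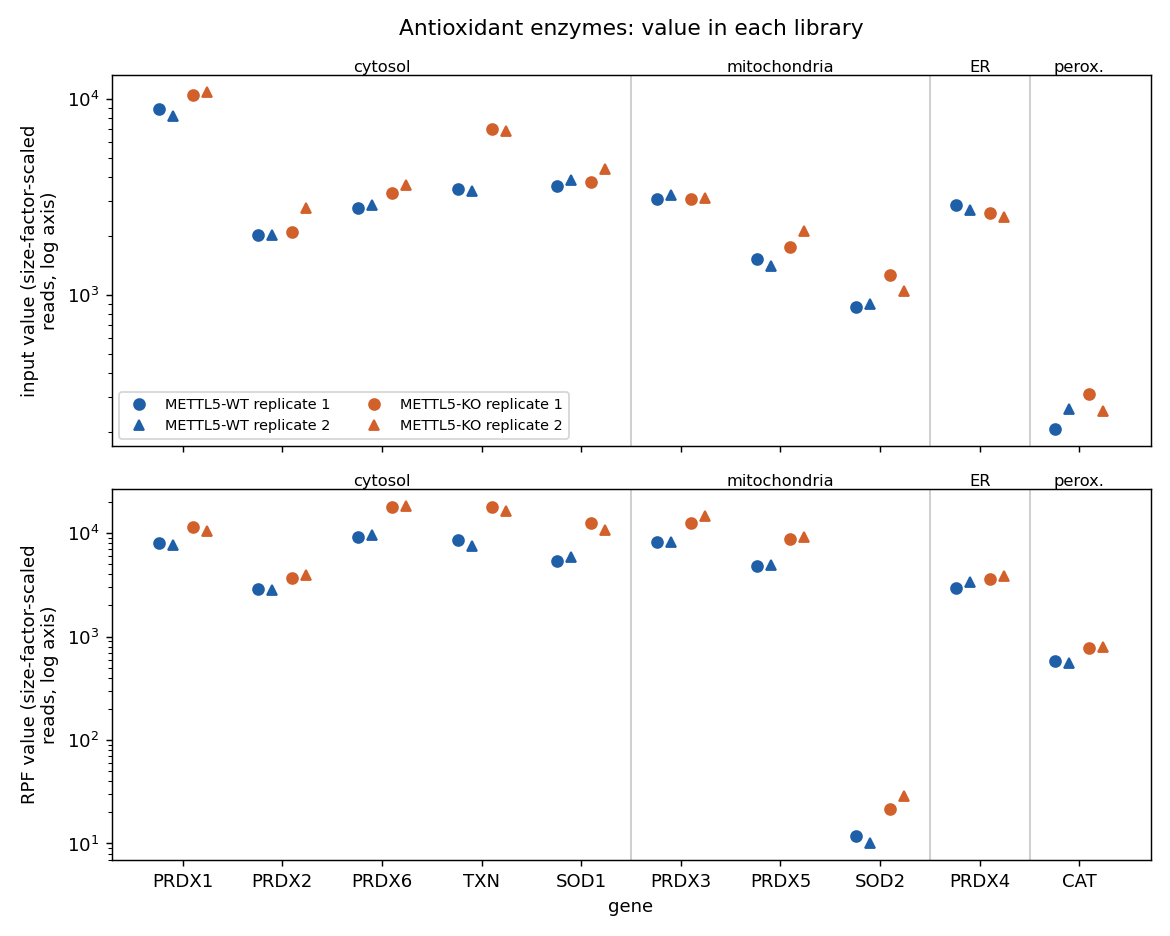
Deposited value of each gene in every library, on a log axis, with input in the upper panel and RPF in the lower one. Each point is 1 library, blue for METTL5-WT and orange for METTL5-KO, circle for replicate 1 and triangle for replicate 2. In RPF both METTL5-KO points lie above both METTL5-WT points for all 10 genes, and SOD2 stands far below the others at values of 10.0 to 29.0. Genes differ in length, so heights are to be compared within a gene.

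Transcript abundance in the input was compared between genotypes first. TXN rose 2.01-fold, PRDX5 1.30-fold and SOD2 1.29-fold in METTL5-KO, and the other 7 genes did not pass the test. In bulk RNA, fewer cells that express a gene and less RNA per cell cannot be told apart. These 3 of 10 compare with 11.8% of the 14054 genes tested that were called higher by edgeR and 10.6% called lower. The median input change of the 10 genes was 0.27 on the log2 scale, against a median of -0.0043 over all genes with quartiles of -0.27 and 0.29.

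TXN (chromosome 9, 110243810 to 110256507, minus strand, hg38) had input values, in reads scaled by a size factor per library, of 3449 and 3386 in the METTL5-WT libraries against 6985 and 6858 in METTL5-KO. The METTL5-KO lysates were thus close to each other and far above both METTL5-WT lysates. The change was 1.00 ± 0.11 on the log2 scale (SE; edgeR adjusted p = 5.21e-07), and it stayed called in all 5 alternative tests. With 1 library left out it lay between 0.99 and 1.02. The median input change of its 40 nearest neighbours on the chromosome was -0.12.

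PRDX5 (chromosome 11, 64318121 to 64321811, plus strand) had input values of 1524 and 1406 in the METTL5-WT libraries against 1757 and 2101 in METTL5-KO, with a log2 fold change of 0.38 ± 0.12 (edgeR adjusted p = 0.0239). Its 40 neighbours had a median input change of 0.23 in the same direction, and whether the region as a whole differs between the clones was not tested. SOD2 (chromosome 6, 159669069 to 159762529, minus strand), the manganese enzyme of the mitochondrial matrix, had 868 and 896 against 1253 and 1047, a log2 fold change of 0.37 ± 0.12 (edgeR adjusted p = 0.0297). Both calls were lost without the first METTL5-WT library (adjusted p = 0.254 for PRDX5 and 0.416 for SOD2) and without the second (0.427 and 0.309), a fit that leaves 1 library in that group and assumes that it varies like the others. SOD2 also missed the threshold in limma on the scaled values (adjusted p = 0.287).

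PRDX1 and PRDX6 lay just outside the threshold, and PRDX2 lay further from it. PRDX1 (chromosome 1, 45510914 to 45542732, minus strand) had input values of 8831 and 8124 in the METTL5-WT libraries against 10422 and 10838 in METTL5-KO, which is a change of 0.31 ± 0.11 (edgeR adjusted p = 0.0529), and was called in 4 of 5 alternative tests. PRDX6 (chromosome 1, 173477330 to 173488815, plus strand), the peroxiredoxin that works with a single reactive cysteine and glutathione, had 2770 and 2849 against 3292 and 3631, at 0.29 ± 0.11 (adjusted p = 0.0729), and was called in 3 of 5. With 1 input library left out, the change of PRDX1 ranged from 0.26 to 0.38 and that of PRDX6 from 0.22 to 0.37. Such a fit leaves 1 library in a group and takes the spread from the others, so no call is read from it for these genes. For PRDX2 (chromosome 19, 12796820 to 12801800, minus strand) the METTL5-KO libraries stood apart from each other, at 2077 and 2771, against 2005 and 2006 in METTL5-WT. PRDX2 lies within HOOK2 on the same strand. The change of PRDX2, 0.26 ± 0.13 (edgeR adjusted p = 0.152), became 0.47 without the first METTL5-KO library and 0.04 without the second.

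Of the remaining genes, PRDX3, the peroxiredoxin of the mitochondrial matrix (chromosome 10, 119167720 to 119178812, minus strand), had nearly level input values of 3087 and 3236 against 3088 and 3112. PRDX4, the ER member (chromosome X, 23664262 to 23686397, plus strand), had 2862 and 2698 in the METTL5-WT libraries against 2597 and 2483 in METTL5-KO, with no overlap but a change of -0.14 ± 0.11 that missed the threshold (edgeR adjusted p = 0.396). SOD1, the copper and zinc enzyme (chromosome 21, 31659666 to 31668931, plus strand), had 3579 and 3841 against 3763 and 4349, which overlap. Its change of 0.12 ± 0.12 (edgeR adjusted p = 0.526) ranged from 0.0076 to 0.23 with 1 library left out. CAT (chromosome 11, 34438934 to 34472060, plus strand) was the least abundant by input value, at 206 and 260 against 310 and 254, also with overlap. Its change of 0.26 ± 0.15 (edgeR adjusted p = 0.248) ranged from 0.10 to 0.44 with 1 library left out. In all, 6 of 10 genes had both METTL5-KO input values above both METTL5-WT values, an arrangement found in 31.9% of the genes of the TE table. Single-gene exact permutation tests of 2 against 2 values cannot go below p = 0.333.

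Ribosome footprints were compared next, and here the group moved further. In METTL5-KO 9 of the 10 genes rose by limma, in a fit that takes 1 spread per gene from all 8 libraries, and PRDX4 did not pass the test. On the 4 RPF libraries alone limma called 8, and the call of SOD2 was lost. The background was 16.2% of 11240 genes called higher and 13.1% called lower by limma, and 14.4% called higher by edgeR on the recovered reads, which called the same 9 genes. Both METTL5-KO RPF values were above both METTL5-WT values in 10 of 10 genes, against 32.4% of the TE table. The median RPF change was 0.81 on the log2 scale, and over all genes it was 0.02 with quartiles of -0.30 and 0.34. The genes are mostly abundant, with mean RPF values from percentile 73.4 (CAT) to 99.4 (PRDX6) of the TE table, and SOD2 at 7.53. Whether other genes of like abundance rose as often was not tested. Quantile normalization, run over input and RPF libraries together, lowered several RPF changes. Those of SOD1, TXN, PRDX6, PRDX5 and PRDX3 became 0.72, 0.72, 0.60, 0.61 and 0.40, while that of SOD2 was 1.25.

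SOD1 had RPF values of 5338 and 5932 in the METTL5-WT libraries against 12607 and 10776 in METTL5-KO. Both METTL5-KO libraries were well above both controls, and the log2 fold change was 1.05 ± 0.11 (limma adjusted p = 3.00e-06). TXN had 8657 and 7567 against 17818 and 16363, a log2 fold change of 1.08 ± 0.10 (limma adjusted p = 8.11e-07). PRDX6 had 9168 and 9668 against 17748 and 18413, a log2 fold change of 0.94 ± 0.10 (limma adjusted p = 2.50e-06). For these 3 cytosolic proteins, a dismutase, a disulfide reductase and a peroxidase, no RPF value of a METTL5-KO library came near the METTL5-WT values.

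Among the mitochondrial genes, PRDX5 had RPF values of 4782 and 4938 in the METTL5-WT libraries against 8820 and 9243 in METTL5-KO, which is a change of 0.89 ± 0.10 (limma adjusted p = 8.69e-06). PRDX3 had 8201 and 8160 against 12614 and 14651, a log2 fold change of 0.73 ± 0.10 (limma adjusted p = 4.84e-05). The METTL5-WT values of PRDX3 nearly coincided, and the METTL5-KO values were further apart but both higher. SOD1, TXN, PRDX6, PRDX5 and PRDX3 stayed called in all 14 alternative tests and without any of the 4 lysates.

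The smaller rises were less steady. PRDX1 had RPF values of 8115 and 7643 against 11567 and 10418, a log2 fold change of 0.48 ± 0.10 (limma adjusted p = 0.00231) that was lost with quantile normalization. PRDX2 had 2865 and 2814 against 3706 and 3899, at 0.42 ± 0.12 (adjusted p = 0.0119), lost without the second METTL5-WT lysate (adjusted p = 0.0598) and in 3 of 14 alternative tests. CAT had 584 and 558 against 779 and 787, at 0.46 ± 0.15 (adjusted p = 0.0302). Its call was lost without any 1 of the 4 lysates, with adjusted p-values of 0.0531 to 0.114, although its change stayed between 0.42 and 0.49. PRDX4 had 2970 and 3389 against 3642 and 3836, at 0.24 ± 0.10 (limma adjusted p = 0.0850), and was called in 0 of 14 alternatives.

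**Figure D2:**
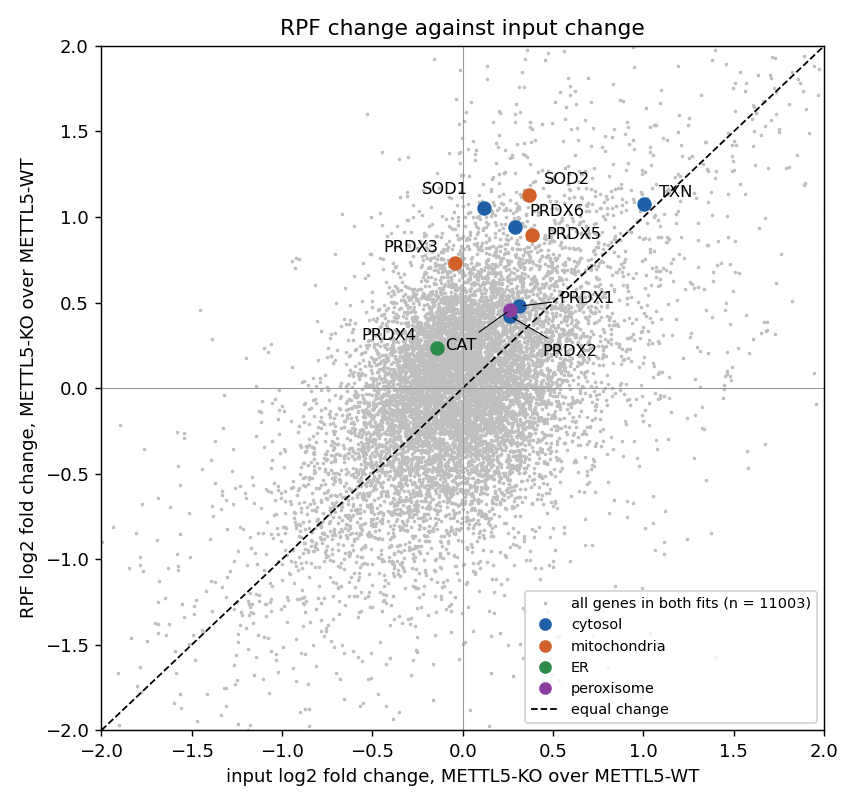
RPF log2 fold change against input log2 fold change, METTL5-KO over METTL5-WT, for 11003 genes in both fits (grey, of which 250 lie outside the axes) and for the 10 antioxidant genes coloured by compartment. All 10 lie above the dashed line of equal change, TXN closest to it at 1.00 and 1.08, while PRDX3 has an RPF change of 0.73 with an input change of -0.04. Over all genes, 5796 of 11003 lie above the line.

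TE was compared as the difference between the RPF and the input change, tested as an interaction in a single model of all 8 libraries. SOD1, PRDX3 and PRDX6 were called higher in METTL5-KO, 1.90-fold, 1.69-fold and 1.56-fold, by limma and by edgeR on the recovered reads. These 3 of 10 compare with 2.7% of 11240 genes called higher and 2.08% called lower by limma, and 3.11% called higher by edgeR. Both METTL5-KO lysates were above both METTL5-WT lysates in 7 of 10 genes, against 28.1% of the TE table. The median TE change was 0.43 on the log2 scale, and 0.02 over all genes with quartiles of -0.31 and 0.32.

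For SOD1 the log2 ratio of RPF to input value was 0.58 and 0.63 in the METTL5-WT lysates against 1.74 and 1.31 in METTL5-KO. The METTL5-KO lysates were the more spread but both far above the controls. The log2 TE change was 0.92 ± 0.16 (SE; limma adjusted p = 0.00502, edgeR adjusted p = 0.000965), beside an input change of 0.12 ± 0.12 (edgeR adjusted p = 0.526). The call was lost without the first METTL5-KO lysate (limma adjusted p = 0.0527) and without the second (0.0554).

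For PRDX3 the log2 ratio was 1.41 and 1.33 in the METTL5-WT lysates against 2.03 and 2.24 in METTL5-KO, with a TE change of 0.76 ± 0.14 (limma adjusted p = 0.00883, edgeR adjusted p = 0.00326). For PRDX6 it was 1.73 and 1.76 against 2.43 and 2.34, with a change of 0.64 ± 0.14 (limma adjusted p = 0.0162, edgeR adjusted p = 0.0118). In both genes the gap between genotypes was larger than the gap between lysates of a genotype. The PRDX3 call was lost without the second METTL5-WT lysate (limma adjusted p = 0.0695) or the second METTL5-KO lysate (0.101), and the PRDX6 call without any 1 of the 4 lysates (0.0572 to 0.123).

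PRDX5 stood at the threshold. Its log2 ratio was 1.65 and 1.81 in the METTL5-WT lysates against 2.33 and 2.14 in METTL5-KO, which do not overlap, with a TE change of 0.50 ± 0.15 (limma adjusted p = 0.0596, edgeR adjusted p = 0.0618). Input and RPF libraries sharing a genotype and a number were made from 1 lysate, and with the lysate as a replicate block PRDX5 was called (adjusted p = 0.0337), which made 4 of 10 genes. Over all 11240 genes this block called 794 in TE, against 538 in the main test. Across genes, input and RPF of a lysate deviated with correlations of only -0.02 (METTL5-WT) and 0.05 (METTL5-KO).

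The other genes were not called in TE. PRDX4 had log2 ratios of 0.05 and 0.33 against 0.49 and 0.63, a change of 0.37 ± 0.14 (limma adjusted p = 0.134). PRDX1 had -0.12 and -0.09 against 0.15 and -0.06, a change of 0.15 ± 0.15 (adjusted p = 0.573). PRDX2, TXN and CAT overlapped between genotypes, with changes of 0.16 ± 0.17, 0.06 ± 0.15 and 0.18 ± 0.21. TXN therefore differed from SOD1 in which layer moved, since its log2 ratio was 1.33 and 1.16 in the METTL5-WT lysates against 1.35 and 1.25 in METTL5-KO while its RNA rose 2.01-fold. A test of the difference between genes was not made.

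**Figure D3:**
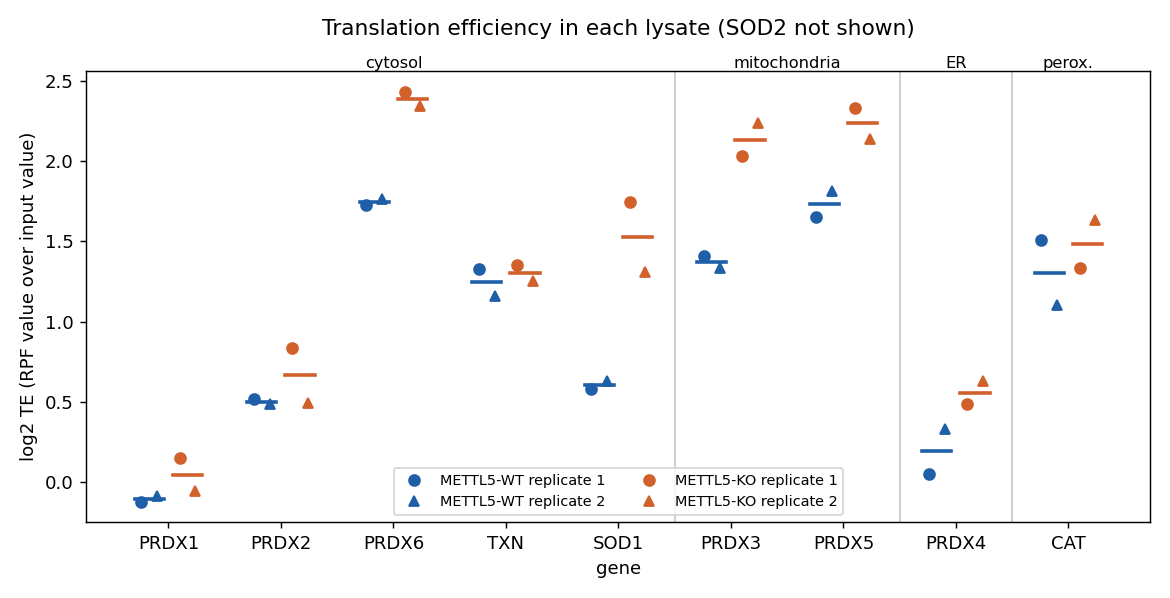
Log2 ratio of RPF value to input value in each of the 4 lysates for 9 genes, with short lines at the genotype means and compartments marked above. The METTL5-KO points of SOD1 (1.74 and 1.31), PRDX6 (2.43 and 2.34) and PRDX3 (2.03 and 2.24) lie clear of their METTL5-WT points, and those of TXN, PRDX2 and CAT overlap them. SOD2, at -6.48 to -5.17, is left out of the plot for scale.

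Scaling changed several of these values. Quantile normalization was run over all 8 libraries, so input and RPF were given the same distribution. With quantile normalization SOD1, PRDX3 and PRDX6 missed the threshold (limma adjusted p = 0.0524, 0.0966 and 0.326), with TE changes of 0.57, 0.44 and 0.26, PRDX1 and PRDX2 turned to -0.11 and -0.09, and TXN turned to -0.56 and was called lower (adjusted p = 0.0448). Removing a trend on GC content from each library turned TXN to -0.19 and PRDX1 to -0.04 and brought PRDX5 to 0.69 (adjusted p = 0.00853), with SOD1, PRDX3 and PRDX6 still called. The direction of TXN and PRDX1 in TE thus depended on the scaling or the trend removed. Of these settings only quantile normalization turned PRDX2, which was at 0.26 with the GC trend removed.

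The cytosolic genes were compared with the mitochondrial and ER genes. The median TE change was 0.16 over the 5 cytosolic genes and 0.63 over the 4 mitochondrial and ER genes, a difference of -0.47, while CAT stood at 0.18. The 0.63 lies between PRDX5 (0.50 ± 0.15) and SOD2 (0.75 ± 0.32), and SOD2 rested on 5 and 5 RPF reads in METTL5-WT. The ranges overlapped, from 0.06 (TXN) to 0.92 (SOD1) in the cytosol and from 0.37 (PRDX4) to 0.76 (PRDX3) in mitochondria and ER. The cytosolic group was itself divided, with SOD1 and PRDX6 high and PRDX1, PRDX2 and TXN low. Against the METTL5-WT mean, the difference of medians was -0.21 in the first METTL5-KO lysate and -0.60 in the second, and it fell to -0.18 without the second. It was -0.59 with PRDX5 left out and -0.34 among peroxiredoxins alone, a set that does not hold SOD2. No test was made over so few genes.

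By input the order was the other way round. The median input change was 0.29 in the cytosol, where all 5 genes were above 0 and TXN was called, and 0.16 in mitochondria and ER, where PRDX5 and SOD2 were called and PRDX3 and PRDX4 were below 0. Over all genes the median was -0.0043, and 11.8% were called higher. By RPF the medians were 0.94 and 0.81, with 5 of 5 cytosolic and 3 of 4 mitochondrial and ER genes called, beside 16.2% of all genes called higher. The 3 include SOD2, whose RPF call rested on few reads. CAT, alone in the peroxisome, was called in RPF and not in input or TE.

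**Figure D4:**
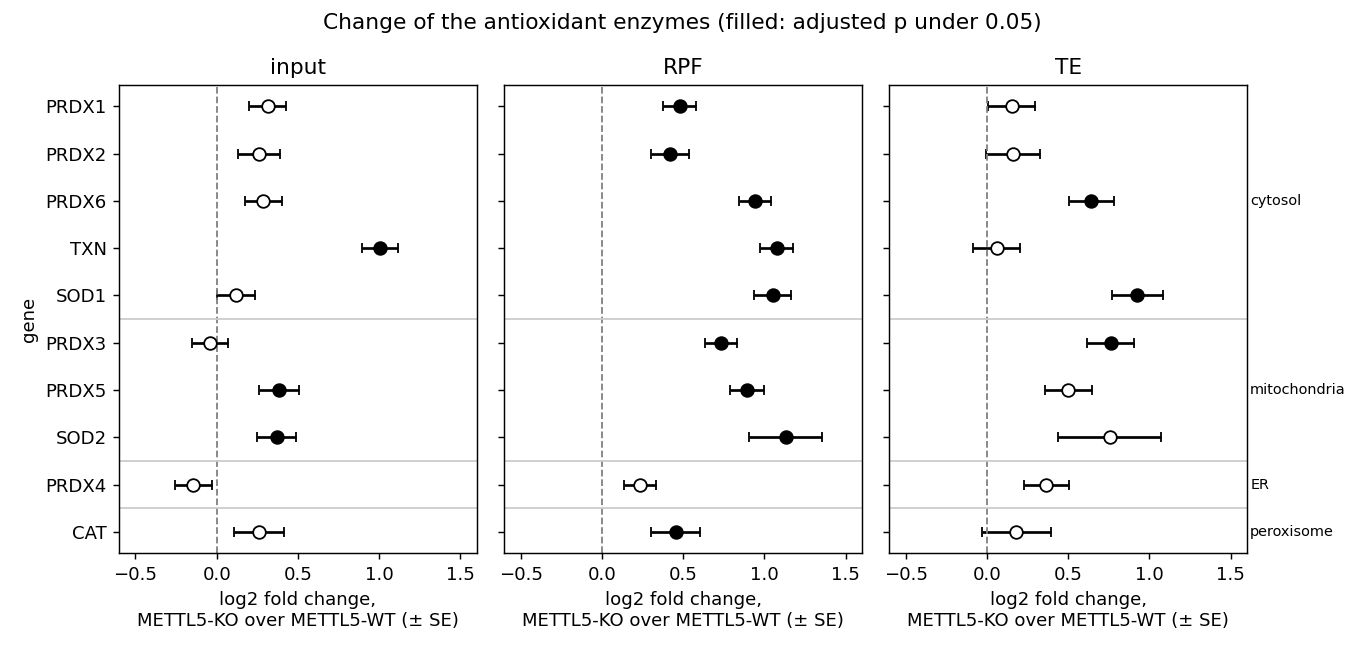
Log2 fold change of METTL5-KO over METTL5-WT with its SE for each gene in input (edgeR), RPF and TE (limma), ordered by compartment; filled points passed an adjusted p-value of 0.05. TXN is filled in input and RPF and lies at 0.06 in TE, SOD1 and PRDX3 are filled in RPF and TE and lie at 0.12 and -0.04 in input, and PRDX4 is open in all 3 panels.

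SOD2 departed from the rest in its footprint level. It had 1261 to 2085 input counts in a library but 5 and 5 RPF reads in METTL5-WT against 18 and 26 in METTL5-KO. The RPF values of 11.9, 10.0, 21.7 and 29.0 do not overlap between genotypes, and the log2 fold change of 1.13 ± 0.22 passed in limma (adjusted p = 0.00125) and barely in edgeR (adjusted p = 0.0498). These fits share the spread with the input libraries, where SOD2 had far more reads, so the SE of 0.22 is not that of the footprints alone. In limma on the 4 RPF libraries alone the change was 1.13 ± 0.58 and did not pass (adjusted p = 0.176). It did not pass either in DESeq2 on the recovered reads (adjusted p = 0.0694) or in edgeR on the 4 RPF libraries (0.187), the last an alternative added after the data were seen. Its ratio of RPF to input value ranked 6 from the lowest of 11244 genes in METTL5-WT. The canonical transcript used here is mostly 3′ untranslated, with 13427 of 14167 bases against 666 coding bases, while the exons counted in input held 18144 bases. Where the reads lie along SOD2 was not examined. With input taken per kilobase of that transcript and RPF per kilobase of coding sequence, the ratio was 0.236 and 0.197 in METTL5-WT. It ranked 87 of 11226, below that of PRDX4 (0.987 and 1.22), the next lowest of the 10, and it rests on these lengths. SOD2 was also the only one of the 10 genes whose identifier in the files (ENSG00000112096) differs from that in the annotation used here, it overlaps WTAP and ACAT2 on the opposite strand and SOD2-OT1 on its own, and the part of these in its low footprint count was not tested. At such depth its TE change of 0.75 ± 0.32 (limma adjusted p = 0.168) has a wide error.

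The partners of these enzymes were counted from lists chosen for this pathway. Their counts are raw reads from libraries of unequal depth, for which the fold changes are corrected. In input, 5 of 12 thioredoxin system partners rose and 0 fell, beside 11.8% and 10.6% of all genes tested, with a list median of 0.19. TXNRD1, the cytosolic thioredoxin reductase, had 22481 and 22087 counts against 37687 and 43652 in METTL5-KO, with a log2 change of 0.51 ± 0.11 (edgeR adjusted p = 0.00206). It rose in RPF too, by 0.76 ± 0.11 (limma adjusted p = 5.81e-05). SRXN1, the sulfiredoxin that repairs overoxidized peroxiredoxins, had 71 and 50 input counts against 95 and 187 and rose by 0.84 ± 0.28 (edgeR adjusted p = 0.0304). In RPF it did not pass (0.37 ± 0.28, limma adjusted p = 0.343). The largest input change of the list was that of TXNIP, named after its value was seen, at 1.61 ± 0.12 (edgeR adjusted p = 3.43e-10). TXN2, the mitochondrial thioredoxin, did not pass in input (0.22 ± 0.13, edgeR adjusted p = 0.253) or in RPF (limma adjusted p = 0.184). In RPF 5 of 12 rose and 1 fell, beside 16.2% and 13.1% of all genes, with a list median of 0.37. In TE 0 of 12 were called by limma or by edgeR.

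Of the glutathione and glutaredoxin genes, 10 of 12 were tested, and in input 5 rose and 1 fell, beside 11.8% and 10.6% of all genes, with a median of 0.28. GSR, the glutathione reductase, had 2376 and 2264 input counts against 4492 and 4999 and rose by 0.68 ± 0.11 (edgeR adjusted p = 0.000107), and in RPF by 1.17 ± 0.10 (limma adjusted p = 2.60e-07). The selenium peroxidases GPX1, at 0.55 ± 0.12 (edgeR adjusted p = 0.00173), and GPX4, which acts on lipid peroxides, at 0.42 ± 0.12 (adjusted p = 0.0149), rose in input as well. In RPF 6 rose and 1 fell, beside 16.2% and 13.1%. In TE 0 of 10 were called by limma, while edgeR called 1, the mitochondrial glutaredoxin GLRX5, named after its value was seen (limma TE change -0.53 ± 0.18).

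Of 11 ER oxidative folding genes tested, 0 rose and 6 fell in input, beside 11.8% and 10.6% of all genes, with a median of -0.36. In RPF 1 rose and 5 fell, beside 16.2% and 13.1%. The lists were not tested against each other. ERO1A, the oxidase that makes hydrogen peroxide as it drives disulfide formation, was at -0.25 ± 0.12 in input (edgeR adjusted p = 0.132). GPX8, a peroxidase of the ER membrane, was the ER list gene called in TE. It had 1210 and 1214 input counts against 1220 and 1186, which at the depth of these libraries is a fall by 0.36 on the log2 scale (edgeR adjusted p = 0.0421). Its RPF reads were 476 and 507 against 1459 and 1486, a change of 0.67 ± 0.12 (limma adjusted p = 0.000484). Both parts entered its TE change of 1.02 ± 0.17 (limma adjusted p = 0.00419, edgeR adjusted p = 0.000736).

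Among 7 genes for copper and manganese supply, 1 rose in input, near the 11.8% of all genes. In RPF 4 rose by limma, beside 16.2% of all genes, and edgeR called 3. In TE 0 were called by limma or by edgeR. CCS, the chaperone that hands copper to SOD1, had 133 and 141 input counts against 139 and 213, an input change of -0.01 ± 0.20, and a TE change of 0.18 ± 0.28. Of 10 peroxisome import and oxidase genes, 7 were tested. In input 1 of them fell, near the 10.6% of all genes, in RPF 2 rose and 1 fell, beside 16.2% and 13.1%, and in TE 1 rose, beside 2.7%. PEX5, the receptor that imports catalase, fell in input by 0.45 on the log2 scale (edgeR adjusted p = 0.0184). PEX13, part of the docking complex in the peroxisome membrane, had 76 and 75 RPF reads against 257 and 274, an RPF change of 0.90 ± 0.16 (limma adjusted p = 0.000519) beside an input change of -0.20 ± 0.13 (edgeR adjusted p = 0.301). It rose in TE by 1.09 ± 0.23 (limma adjusted p = 0.0137, edgeR adjusted p = 0.00532). The list medians in TE were 0.12, 0.23, 0.09, 0.18 and 0.43 for thioredoxin partners, glutathione genes, ER folding, metal supply and peroxisome, against 0.02 over all genes.

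Several of these genes, among them TXN, TXNRD1, SRXN1 and GSR, are known targets of the transcription factor NRF2, which binds antioxidant response elements. The core of this element, TGACNNNGC on either strand, was searched in RefSeq promoter windows from 250 bases before to 50 after each start (GRCh38.p14). It was in 0 of 11 windows of the 7 members that had one, which says only that these letters are not in those windows, and in 13.3% of all 35116 windows. PRDX1, PRDX6 and SOD1 had no window in that set. Of the NRF2 targets named above only TXN is a member, and the windows of TXNRD1, SRXN1 and GSR were not read one by one.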

How the data were processed

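Input RNA and ribosome-protected fragments were sequenced from the same lysates, and groups and replicate numbers were read from the sample titles. Per the labels, the authors aligned reads to hg38 with STAR 2.7.3a and deposited raw counts per gene for input from featureCounts (1.6.0 in the labels), which counted uniquely aligned reads over exons by strand. For RPF the study's methods name trimming, a choice of footprint lengths and RiboToolkit. The signal values deposited in the TE table, named RPKM by the authors, were whole reads times a factor per library (100% whole within 0.01), and 100% of the recovered input reads equalled the count table. The authors also deposited log2 fold changes of TE with p-values and adjusted p-values, which were not used. The count table had 60718 genes after 3 broken lines were left out.

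The input test was edgeR 4.0.16 on the counts (TMM, quasi-likelihood). The RPF and TE tests were limma 3.58.1 (trend) on log2(value + 1), for genes whose mean reached 1 among input and among RPF libraries, a scale that understates changes of low genes. Both were fitted to all 8 libraries, so the RPF test shares its estimate of the spread with the input libraries. RPKM had been assumed in the plan, so this stayed the main test, and edgeR on recovered reads was set beside it. Fits covered all genes, p-values are two-sided and Benjamini-Hochberg adjusted, and 0.05 was the threshold. Alternatives included DESeq2 1.42.0, other scalings and filters, GC and length trends (local regression, span 0.3), replicate blocks, and leaving out each lysate. R 4.3.3 and Python 3.11.15 were used. The tests were also run on simulated independent counts of fixed dispersion. Those counts held no lysate or clone effects, so they cannot show how the tests behave on these data. Lengths and sequences came from GENCODE canonical transcripts. Same-numbered METTL5-WT and METTL5-KO libraries deviated with correlations of 0.04 (input) and -0.0021 (RPF). Input and RPF of a lysate, which are paired by the protocol, deviated with correlations as small (-0.02 and 0.05). The check therefore cannot show whether the number pairs libraries.

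All 10 members are described, with partner genes named by role and every list gene called in TE by limma and edgeR. Members and lists were chosen with earlier results of these data known. The METTL5-WT RPF libraries were the shallowest, so low genes are least precise there.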

Additional observations from a re-analysis of the deposited data

How the results depend on the processing

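The count of 3 genes called in input became 5 with DESeq2 and 5 with no filter on low counts. It moved in both directions when 1 library was left out, a fit that leaves 1 library in a group. The 9 genes called in RPF ranged from 6 to 9 over other settings and from 7 to 8 with 1 lysate left out. The 3 genes called in TE became 0 in limma without the variance trend, where 1 gene in all was called, and 1, TXN, with quantile normalization, and ranged from 0 to 2 with 1 lysate left out. Over all genes the TE count of 538 was 283 with the GC trend removed, 855 with DESeq2 on recovered reads and 4 to 266 with 1 lysate left out. The cytosolic minus mitochondrial and ER difference of -0.47 ranged from -0.60 to -0.18 with 1 lysate left out and from -0.59 to -0.34 elsewhere. TE changes that turned sign, for causes that were not tested, were those of PRDX1 (-0.113 with quantile normalization, and -0.0385 with the GC trend removed both with and without the lysate block), PRDX2 (-0.0944 with quantile normalization, and -0.00882 to 0.33 with 1 lysate left out), TXN (-0.56 with quantile normalization, -0.19 with the GC trend removed both with and without the lysate block, -0.13 with the length trend removed, and -0.0246 to 0.14 with 1 lysate left out) and CAT (-0.0234 to 0.38 with 1 lysate left out).

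With the replicate block on the lysate 4 genes were called in TE, PRDX5 added at an adjusted p of 0.0337, while calls over all genes rose from 538 to 794. With a replicate block on the number, which has no basis in the labels beyond the number, 3 were called in input, 9 in RPF and 4 in TE, and PRDX5 was again the addition (adjusted p = 0.0487). Over all genes the block on the number called 3554 in input, 3513 in RPF and 764 in TE, against 3149, 3288 and 538 in the main tests. The blocks changed no other call of the 10 genes. Depth limits SOD2 in RPF most.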
